A study of Mus musculus with 4 samples.

Results

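The Iroquois homeobox genes lie in a pair of clusters in the mouse genome, and the H3K27me3 peaks over both clusters were taken from maps of fetal and adult blood progenitors. The Irx3-Irx5-Irx6 cluster was defined as 94.2 to 95.3 Mb of chromosome 8 and the Irx1-Irx2-Irx4 cluster as 72.0 to 73.5 Mb of chromosome 13 (mm9), and every peak touching these windows was a member. There were 104 such peaks among 51871 in all, 29 of 20024 in the bone marrow list and 75 of 31847 in the fetal liver list. H3K27me3, trimethylation of histone H3 at lysine 27, was mapped by native chromatin immunoprecipitation in lineage-negative cells of C57BL/6 mice, which lack the surface proteins of mature blood cells. The adult cells were flushed from long bones at an age of 8 weeks, and the fetal cells were taken from livers at embryonic day 14.5. Both populations carried a lentivirus for NOTCH1ΔE (N1dE), a NOTCH1 form cut short on its extracellular side, were cultured for 3 days with cytokines and were sorted for GFP, so all groups share the transgene and the culture. Peak lists hold no expression, so the labelled cell types could not be checked against markers.

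The comparison asks where the mark over these clusters depends on the developmental source of the progenitors. There was 1 peak list per population, called on merged libraries against input, and the depth behind the lists is unknown. The error between animals is therefore unknown, and all values are descriptions without a test. Peak calls grow in number and width with read depth, and the part of depth in any excess of one list was not tested.

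Iroquois proteins are transcription factors with a homeodomain of the TALE class, in which extra residues lie between the first helices. They pattern the heart, limb, nervous system and other organs of the embryo. Irx3 and Irx5 act together in the limb and heart, Irx4 is known for its expression in the cardiac ventricles, and Irx6 acts in retinal bipolar cells. H3K27me3 is laid down by Polycomb repressive complex 2, and developmental regulators of this kind are among its classical silenced targets outside the tissues that use them. In the RefSeq gene order of GRCm38.p6, the Irx3-Irx5-Irx6 cluster stands between Fto and Mmp2. The Irx1-Irx2-Irx4 cluster stands between Adamts16 and Ndufs6. There are 0 protein-coding genes between the members of either cluster, but the spacers are not free of genes. Between Irx3 and Irx5 the table lists 7 long noncoding RNA genes, Irx3os and Crnde among them, and between Irx5 and Irx6 it lists 0. Between Irx1 and Irx2 there are 3, and between Irx2 and Irx4 there are 5. This order was used for names only. The peaks are on mm9, so no gene was placed on a peak, and the marked domains are numbered along each window instead of being named after a gene.

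The promoters are shown because Polycomb domains in mammals tend to form over CpG-rich starts of genes. Of the 6 members 3 were matched in RefSeq's promoter table (GRCm38.p6), and Irx1, Irx5 and Irx6 were not matched. Each sequence is the 250 bases before the start, 5′ to 3′ on the strand of the gene, with every CG in capitals.
Irx3: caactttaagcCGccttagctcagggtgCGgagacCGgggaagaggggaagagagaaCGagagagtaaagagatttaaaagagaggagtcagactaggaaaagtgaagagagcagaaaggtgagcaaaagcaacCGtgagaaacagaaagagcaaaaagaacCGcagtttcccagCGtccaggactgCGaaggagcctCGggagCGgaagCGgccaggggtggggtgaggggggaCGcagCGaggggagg
Irx2: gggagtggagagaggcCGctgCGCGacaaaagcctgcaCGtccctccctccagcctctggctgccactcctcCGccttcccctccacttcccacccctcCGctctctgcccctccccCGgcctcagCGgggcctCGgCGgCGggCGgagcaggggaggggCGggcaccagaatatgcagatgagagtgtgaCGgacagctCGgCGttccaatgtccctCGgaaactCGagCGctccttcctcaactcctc
Irx4: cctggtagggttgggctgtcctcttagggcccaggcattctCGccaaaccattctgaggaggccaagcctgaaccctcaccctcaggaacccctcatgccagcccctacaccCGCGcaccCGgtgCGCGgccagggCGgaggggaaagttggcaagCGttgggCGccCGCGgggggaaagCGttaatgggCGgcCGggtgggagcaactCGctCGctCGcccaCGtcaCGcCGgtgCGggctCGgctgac
The Irx3 stretch is chr8:91801655-91801904 on the minus strand, the Irx2 stretch is chr13:72628570-72628819 on the plus strand and the Irx4 stretch is chr13:73260247-73260496 on the plus strand, all on GRCm38.p6 and not on the scale of the peaks. Irx4 held 22 CG, Irx2 held 19 and Irx3 held 13, against a median of 6 over 32851 promoter entries of the same length. At least as many CG as in Irx4 were found in 14.8% of all entries, as in Irx2 in 19.7% and as in Irx3 in 31.5%. The observed number of CG over the number expected from the C and G content was 0.79 in Irx3, 0.744 in Irx4 and 0.666 in Irx2, so the order of the genes depends on the measure.

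Both clusters were marked in both populations, and the fetal liver list as deposited covered more of each. In the Irx1-Irx2-Irx4 cluster that direction turned under 4 of the alternative settings. The ratio was 0.101 at a −log10 q of at least 2. At a fold of at least 3 it was 0, with 2 bone marrow and 0 fetal liver peaks left. It was 0.982 and 0.973 when fetal liver peaks were cut to as many peaks, or as many bases, as in bone marrow. Over the autosomes the ratios under these settings were 0.694, 0.676, 1.1 and 1.01. The direction thus turned there too at the q and fold limits. In the Irx3-Irx5-Irx6 cluster the ratio stayed between 1.69 and 2.82 wherever it could be formed. Over the Irx3-Irx5-Irx6 cluster, 58 fetal liver peaks covered 106.5 kb (9.68% of the window) and 21 bone marrow peaks covered 53.7 kb (4.88%). The ratio of covered bases, fetal liver over bone marrow, was 1.98 there. Over the Irx1-Irx2-Irx4 cluster, 17 fetal liver peaks covered 72.2 kb (4.81%) and 8 bone marrow peaks covered 50.0 kb (3.33%), a ratio of 1.44. Over all autosomes the ratio was 1.52. The excess over the Irx1-Irx2-Irx4 cluster was thus about that of the whole list, and that over the Irx3-Irx5-Irx6 cluster was above it. Fetal liver peaks outnumbered bone marrow peaks 2.76 times (1.69 to 4.53, 95% Wilson interval) over the Irx3-Irx5-Irx6 cluster, 2.12 (0.938 to 4.81) over the Irx1-Irx2-Irx4 cluster and 1.62 (1.59 to 1.65) over the autosomes. These intervals cover counting error only and are too narrow, since neighbouring peaks of a list are not independent. They are no test of a difference between the populations. That of the Irx1-Irx2-Irx4 cluster includes both 1 and the autosomal 1.62. That of the Irx3-Irx5-Irx6 cluster, being too narrow, is not read as excluding either.

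**Figure D1:**
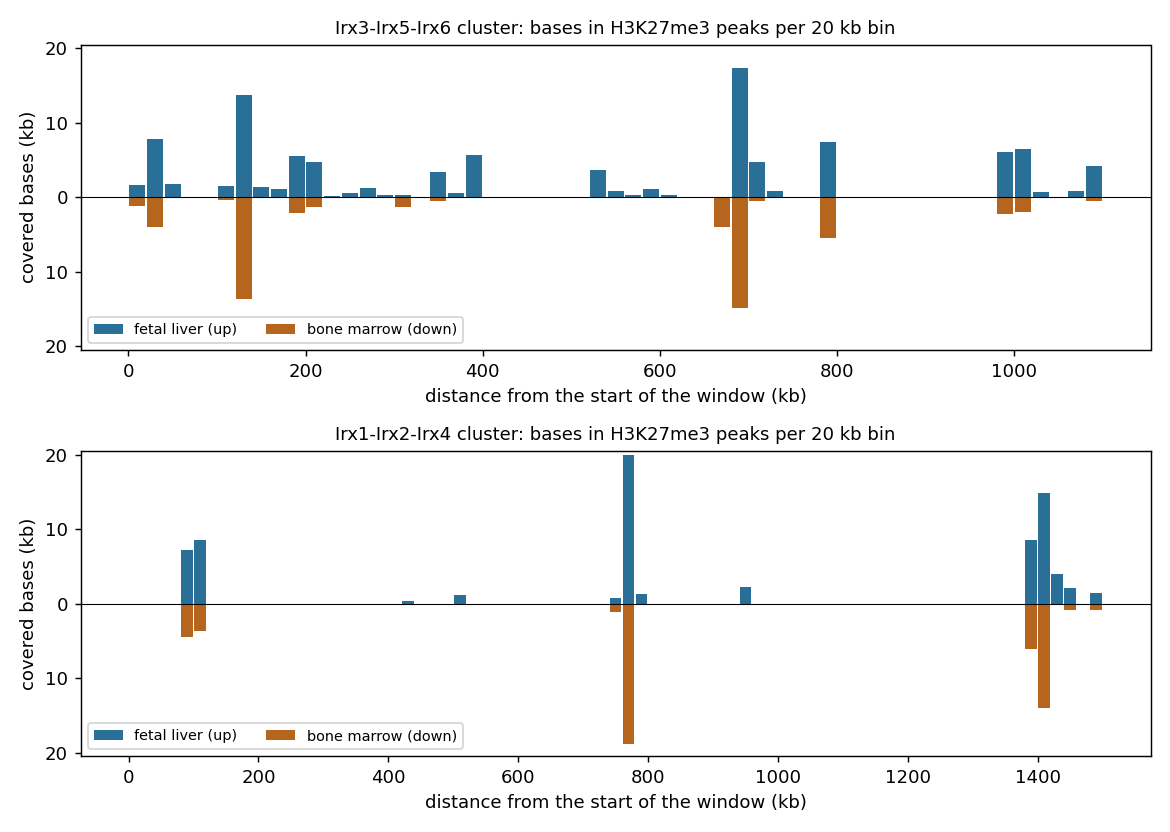
Bases in H3K27me3 peaks in consecutive 20 kb bins (kb, vertical axis) against distance from the start of the window (kb), fetal liver upward and bone marrow downward, 1 peak list each. The Irx1-Irx2-Irx4 cluster shows 3 compact blocks in both lists, and the Irx3-Irx5-Irx6 cluster shows blocks in both lists with many small fetal liver bins between them.

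Most of the bone marrow cover lay within that of fetal liver, nearly all of it in the Irx1-Irx2-Irx4 cluster. In the Irx1-Irx2-Irx4 cluster 48.4 kb lay in both lists, which is 96.8% of bone marrow cover and 67.0% of fetal liver cover. In the Irx3-Irx5-Irx6 cluster 45.4 kb lay in both, which is 84.5% and 42.6%. The same shares over the autosomes were 74.6% and 49.2%. By peaks, 20 of 21 bone marrow peaks of the Irx3-Irx5-Irx6 cluster (95.2%, 95% Wilson interval 77.3 to 99.2%) and 7 of 8 of the Irx1-Irx2-Irx4 cluster (87.5%, 52.9 to 97.8%) shared 1 bp or more with a fetal liver peak, against 68.9% over the autosomes. In the other direction 17 of 58 fetal liver peaks (29.3%, 19.2 to 42.0%) and 4 of 17 (23.5%, 9.56 to 47.3%) overlapped a bone marrow peak, against 39.6%. These intervals are too narrow for the same reason and are no test against the autosomal shares. The bone marrow peaks with no overlap were a 216 bp peak inside a marked domain of the Irx3-Irx5-Irx6 cluster and an 859 bp peak near the right end of the Irx1-Irx2-Irx4 window. They are named because they are the only ones.

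For wide domains, the peaks of both lists were merged where gaps were no longer than 3 kb, and regions with a peak of at least 5 kb in either list were kept, a limit chosen with the values known. The Irx3-Irx5-Irx6 cluster held 5 such domains over 82.7 kb and the Irx1-Irx2-Irx4 cluster held 3 over 70.5 kb. All 8 were marked in both populations, as were 2424 of 2456 wide domains of the autosomes. In 4 of them, the second and the third of each cluster, both lists had a peak of at least 5 kb. The other 4 passed the limit through a fetal liver peak alone, which favours a higher fetal liver cover there. Of 2424 wide domains of the autosomes marked in both lists, 1310 had such a peak in both lists, with a median ratio of covered bases, fetal liver over bone marrow, of 1.18 (interquartile range 1.03 to 1.39). In 801 it was in fetal liver alone, with a median of 1.8 (1.43 to 2.55), and in 313 it was in bone marrow alone, with a median of 0.786. Each domain is therefore read against those that passed in the same way. The widest peak outside a domain was a 3704 bp fetal liver peak of the Irx3-Irx5-Irx6 cluster.

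The 2 widest domains of the Irx3-Irx5-Irx6 cluster were filled almost equally in both populations. The third domain, from 94876080 to 94909263 of chromosome 8, was the widest of the cluster at 33.2 kb and ranked 249 by width among 21820 joined regions of the autosomes. Of its bases 19.2 kb were in bone marrow peaks and 21.5 kb in fetal liver peaks, a ratio of 1.12. The widest bone marrow peak of the cluster, of 17.1 kb, lay here with a fold enrichment over input of 2.02 and a −log10 q of 1.23, both as the authors' peak caller gave them. The widest fetal liver peak, of 16.6 kb, lay here too, with a fold of 1.92 and a −log10 q of 1.18. This domain was shifted between the lists: bone marrow peaks began 4.44 kb farther to the left, and fetal liver peaks ended 5.96 kb farther to the right. The second domain, from 94317336 to 94337307, held 14.0 kb of bone marrow cover and 15.0 kb of fetal liver cover, a ratio of 1.07. It was made up mostly of 1 wide peak per list, which spanned 13.6 kb in bone marrow but 11.7 kb in fetal liver. Both domains passed the limit in both lists. Of the 1310 autosomal domains that passed so, 59.5% reached the ratio of the third domain and 68.2% that of the second.

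The first, the fourth and the fifth domain of this cluster are those that passed through fetal liver alone, their widest bone marrow peaks measuring 3.73, 4.72 and 2.18 kb, so their higher fetal liver cover is in part set by the choice. The first, from 94231177 to 94241797, held 3.94 kb of bone marrow cover and 9.56 kb of fetal liver cover, so that 37.1% and 90.0% of it were covered. The fifth, from 95194365 to 95205514, held 4.18 kb and 10.0 kb, or 37.5% and 89.7%. The ratios were 2.43 and 2.39. Both lay within the interquartile range of the 801 autosomal domains that passed in this way, of which 26.6% and 27.7% reached these ratios. The fourth, from 94981258 to 94989061, was closer to equal, with 5.5 kb in bone marrow, 7.42 kb in fetal liver and a ratio of 1.35. That ratio lay below the lower quartile of 1.43 of the 801 domains, of which 81.1% reached it. The fifth domain in bone marrow consisted of a 2.18 kb and a 2006 bp peak with a gap between them, whereas in fetal liver a single 9.47 kb peak ran across both. A short fetal liver peak of 522 bp at its left end had the highest fold of the list in this window, 3.22, with a −log10 q of 3.44. The highest fold of the bone marrow list here was 2.99, in a 380 bp peak at the right end of the second domain.

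The larger part of the fetal liver excess in the Irx3-Irx5-Irx6 cluster lay outside the wide domains. Inside them the lists covered 63.5 kb in fetal liver and 46.8 kb in bone marrow, a ratio of 1.36. In the rest of the window bone marrow held 8 peaks over 6.85 kb and fetal liver held 43 peaks over 42.9 kb, a ratio of 6.27. Over the autosomes, divided by the same rule, the ratios were 1.30 inside and 1.87 outside. Outside the domains lay 12.8% of bone marrow cover and 40.3% of fetal liver cover in the window, against 37.8% and 46.7% over the autosomes. The share outside was thus far below the autosomal one for bone marrow and nearer to it for fetal liver.

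**Figure D2:**
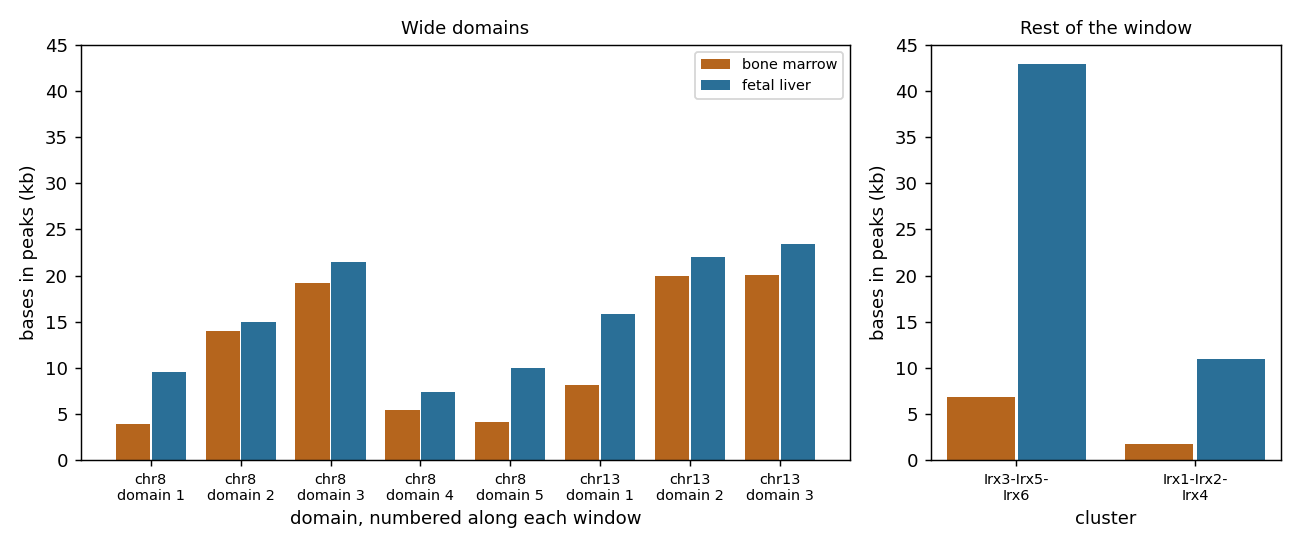
Bases in peaks (kb) in each of the 8 wide domains, left, and in the rest of each window, right, with 1 bar per peak list and no error, since each list is a single sample. Domains 2 and 3 of chromosome 8 and domains 2 and 3 of chromosome 13 have bars of similar height, and outside the domains the fetal liver bar of the Irx3-Irx5-Irx6 cluster stands at 42.9 kb against 6.85 kb.

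Most of this excess lay in the longest spacer, the 538.8 kb between the second and the third domain. Bone marrow had 6 peaks there over 5.14 kb and fetal liver had 30 peaks over 31.3 kb, a ratio of 6.09. All 6 bone marrow peaks overlapped a fetal liver peak, against 68.9% of bone marrow peaks over the autosomes, and 24 of the 30 fetal liver peaks had no bone marrow partner, against 60.4%. These autosomal shares include the peaks of wide domains, which the spacer leaves out by definition. Shares for autosomal peaks outside wide domains were not formed, so the comparison is not of like with like. The fetal liver peaks were short, with a median width of 595 bp, and their fold ran from 1.3 to 2.84 with a median of 1.95, near the median of 1.93 over the autosomal fetal liver peaks. Fetal liver covered 5.81% of this spacer and bone marrow 0.954%. Among 924 stretches of at least 500 kb between neighbouring wide domains of the autosomes the medians were 0.955% and 0.504%. These stretches had a lower limit of length only and were not matched to the spacer in length. Fetal liver cover of at least 5% was found in 3.9% of these stretches, cover as high as in this spacer was found in 1.95%, and bone marrow cover as high as here in 29.2%. Among the 867 stretches with any bone marrow cover, fetal liver cover was at least 5 times that of bone marrow in 6.34%.

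The spacer was not filled evenly. Next to the second domain, from 94340001 to 94380000, there were 3 fetal liver peaks over 2.48 kb. Beyond them, from 94388694 to 94402896, 5 fetal liver peaks formed a 14.2 kb run with 8.16 kb covered, and 4 bone marrow peaks covered 3.36 kb of the same stretch. Among the joined domains of the fetal liver list in this cluster only 2 were wider, although no single peak in it reached 5 kb. Farther along, from 94420001 to 94500000, there were 5 fetal liver peaks over only 2.29 kb. From 94560001 to 94600000 there were 4 fetal liver peaks over 6.23 kb and 0 bone marrow peaks. The widest of them, of 2.63 kb, had a fold of 2.79 and a −log10 q of 2.5, which put its fold at the percentile 93.0 of the fetal liver list. The next, of 2.54 kb, had a fold of 2.74 and stood at the percentile 92.2. From 94720001 to 94820000 there were 7 fetal liver peaks over 6.35 kb. Apart from the 14.2 kb run, these 4 are runs of 20 kb bins in which bone marrow had 0 peaks. By fold, the peaks of the run from 94560001 stood at percentiles of 84.7 to 93.0 of the fetal liver list. Those of the other runs stood lower, at 20.4 to 67.9 (median 21.1) from 94340001, at 3.39 to 74.0 (median 39.3) from 94420001 and at 6.83 to 74.0 (median 24.7) from 94720001. The runs thus held fetal liver peaks of both high and low rank. The longest stretch of the window without a bone marrow peak, of 327.6 kb, ran from 94548502 to 94876079.

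**Figure D3:**
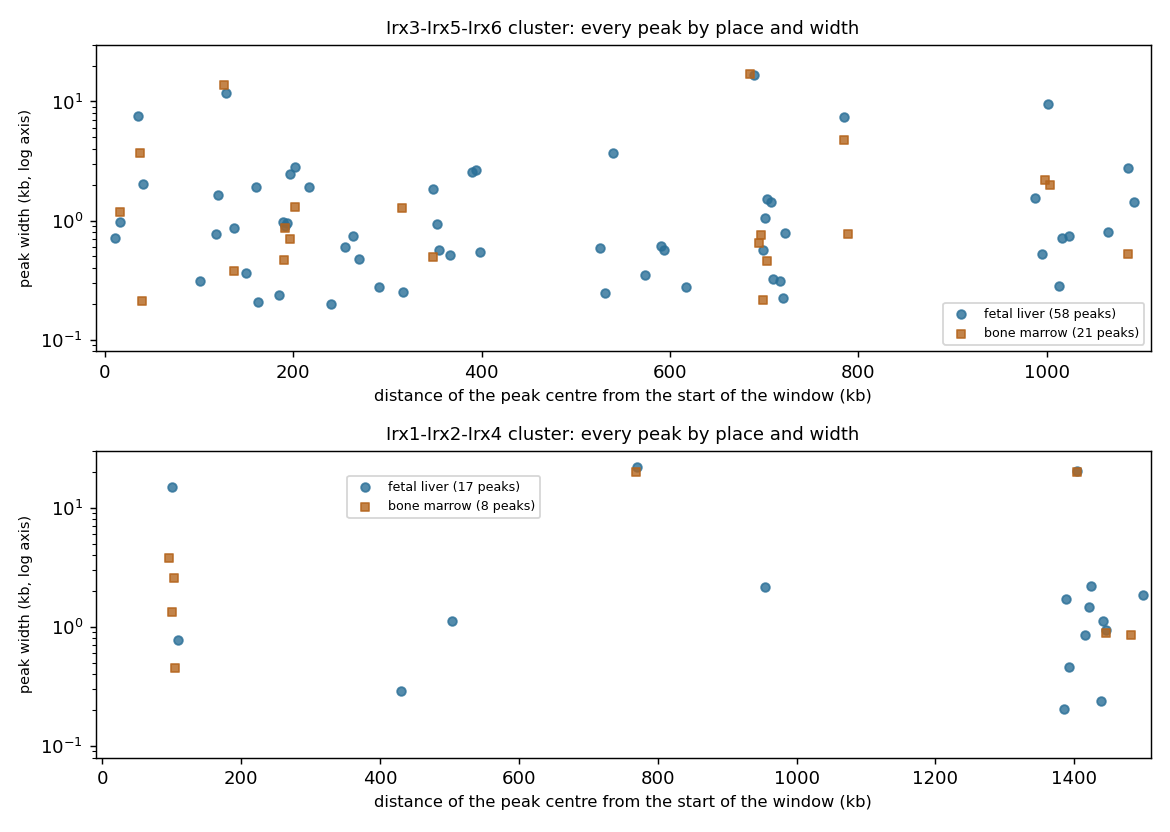
Width of every peak (kb, log axis) against the distance of its centre from the start of the window (kb), circles for fetal liver and squares for bone marrow. Between 340 and 620 kb of the Irx3-Irx5-Irx6 window, fetal liver peaks outnumber bone marrow peaks, and in the Irx1-Irx2-Irx4 window the spacers are nearly empty in both lists.

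The Irx1-Irx2-Irx4 cluster was built of 3 compact domains, and the second and the third were filled alike in the lists. The second domain, from 72758821 to 72781291 of chromosome 13, was a single peak in each population, 20039 bp wide in bone marrow and 21971 bp wide in fetal liver. The bone marrow peak ranked 98 by width of 20024 and had a fold of 2.22 and a −log10 q of 1.68. The fetal liver peak ranked 124 of 31847 and had a fold of 1.92 and a −log10 q of 1.21. The third domain, from 73385425 to 73416327, centred on a 20.1 kb bone marrow and a 20.2 kb fetal liver peak. Their starts differed by 171 bp and their ends by 42 bp. The bone marrow peak had a fold of 2.51 and a −log10 q of 2.47, at the percentile 77.1 of its list by fold, and the fetal liver peak had a fold of 1.85 and a −log10 q of 1.13, at the percentile 41.1. Fetal liver added 4 short peaks to this domain and reached 8.53 kb farther to the left and 2.29 kb farther to the right. The ratios of covered bases were 1.1 and 1.17. Of the 1310 autosomal domains with a peak of at least 5 kb in both lists, 64.1% and 51.5% reached these ratios.

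The first domain of this cluster, from 72092752 to 72109909, passed the limit through a 15.0 kb fetal liver peak alone, and had the highest ratio of the cluster. Bone marrow had 4 separate peaks there over 8.12 kb, or 47.4% of the domain, the widest of them 3.79 kb. Fetal liver had that peak and a 774 bp peak over 15.8 kb, or 92.2%. The ratio was 1.95, which 44.1% of the 801 autosomal domains that passed in the same way reached. The 4 bone marrow peaks lay entirely within the fetal liver cover, since 8.12 kb were in both lists. The fetal liver peak scored low, with a fold of 1.74 at the percentile 27.8 of its list and a −log10 q of 0.91. The excess in this domain therefore rests on 1 broad peak of low score.

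The spacers of the Irx1-Irx2-Irx4 cluster were almost free of the mark. The 648.9 kb between the first and the second domain held 0 bone marrow peaks and 2 fetal liver peaks over 1.41 kb, or 0.217% of its length. The 604.1 kb between the second and the third held 0 bone marrow peaks and 1 fetal liver peak of 2.16 kb, or 0.358%. At least as much fetal liver cover as in these spacers was found in 85.9% and 77.8% of the 924 long stretches, and 6.17% of these stretches had no bone marrow cover at all. The stretches were not matched to these spacers in length. The single peak of the later spacer, from 72953470 to 72955633, had a fold of 2.51 and a −log10 q of 2.34, the highest values of the fetal liver list in this window. It lay alone, and the longest stretch without a peak of either list, of 429.8 kb, began at its right end. The highest bone marrow values were in the 885 bp peak from 73445375 to 73446259, with a fold of 3.27 and a −log10 q of 3.24, which overlapped a fetal liver peak. To the right of the third domain fetal liver had 6 peaks over 7.43 kb and bone marrow 2 over 1.74 kb. Counted over all parts of the window outside the domains, the covers were 11.0 kb and 1.74 kb, a ratio of 6.31 that rests on these 2 bone marrow peaks. The last fetal liver peak crosses the window's end and was counted up to it.

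The long spacers of the clusters differed in both lists. Fetal liver covered 5.81% of the long Irx3-Irx5-Irx6 spacer against 0.217% and 0.358% of those of the Irx1-Irx2-Irx4 cluster. Bone marrow covered 0.954% against 0% and 0%. Beyond the windows the clusters were alike in 1 respect, a long unmarked flank on the left. The nearest peak to the left of the Irx3-Irx5-Irx6 window was 481.3 kb away in bone marrow and 485.5 kb away in fetal liver. To the left of the Irx1-Irx2-Irx4 window it was 1018.3 kb and 1015.3 kb away. On the right the nearest peaks were 51.1 and 30.2 kb from the Irx3-Irx5-Irx6 window and 6.6 and 5.4 kb from the Irx1-Irx2-Irx4 window, so the right ends of the windows are not natural borders.

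Fetal liver covered more bases than bone marrow in 8 of 8 domains, against 78.4% of the 2424 wide domains of the autosomes, but 4 of the 8 entered only by their fetal liver peak, and 98.3% of the autosomal domains entering so had more fetal liver cover. Among the 4 with a wide peak in both lists it covered more in 4, against 79.9%. Its peaks began farther to the left in 6 of 8, against 68.6%, and ended farther to the right in 7 of 8, against 69.7%. With 8 domains these counts are near the autosomal shares. The exceptions on the left were the third domain of the Irx3-Irx5-Irx6 cluster, described above, and the second of the Irx1-Irx2-Irx4 cluster, where bone marrow began 0.5 kb earlier. On the right, bone marrow ended 0.384 kb later in the fourth domain of the Irx3-Irx5-Irx6 cluster. Where fetal liver reached farther, the steps ran from 0.437 to 8.53 kb.

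In bins of 20 kb, 32 of 55 bins of the Irx3-Irx5-Irx6 cluster were covered in at least 1 list, and 17 of these (53.1%) were covered in fetal liver only. The same share over the 19435 covered bins of the autosomes was 35.5%. Under the fetal liver lists reduced to the number or to the covered length of bone marrow peaks the 17 became 10 of 25 (40.0%), against 26.9% and 25.7% over the autosomes. At a −log10 q of at least 2 in both lists there were 6 of 10 (60.0%), against 39.7%. Only 1 bin (3.12%) was covered in bone marrow alone, against 9.16%, and 14 (43.8%) were covered in both, against 55.3%. The bone marrow bin, from 94860001 to 94880000, held 3.92 kb and is the left end of the third domain. The fetal liver bins held from 200 to 5714 bp with a median of 798 bp, and 7 of the 17 held at least 1 kb. In the Irx1-Irx2-Irx4 cluster 13 of 75 bins were covered. Of these 5 (38.5%) were covered in fetal liver only, 0 in bone marrow only and 8 (61.5%) in both, close to the autosomal shares for fetal liver and for both. Among bins covered in both lists fetal liver covered more in 13 of 14 and in 7 of 8. The autosomal share of such bins was not formed. Fetal liver covered 1.52 times as many bases over all autosomes, so these counts are not read as a trait of the clusters.

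Set against autosomal tiles of the same size, both clusters were well marked. The Irx3-Irx5-Irx6 window held more bone marrow cover than 88.8% and more fetal liver cover than 93.3% of 1834 autosomal tiles of 1.1 Mb with any peak. The Irx1-Irx2-Irx4 window held more than 82.7% and 81.0% of 1422 such tiles of 1.5 Mb. In 654 tiles with at least 20 kb in bone marrow peaks, the median ratio of fetal liver to bone marrow cover was 1.44 (interquartile range 1.2 to 1.76). A ratio of at least 1.5 was found in 43.4% of them and one as high as in the Irx3-Irx5-Irx6 cluster in 16.2%. For 622 tiles of 1.5 Mb the median was 1.47, 45.5% reached 1.5 and 51.8% reached the ratio of the Irx1-Irx2-Irx4 cluster. Both sets of tiles were chosen by bone marrow cover alone, the denominator of the ratio, which favours lower ratios among them. The Irx1-Irx2-Irx4 cluster thus lay near the median of well-marked tiles, and the Irx3-Irx5-Irx6 cluster lay above the upper quartile.

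**Figure D4:**
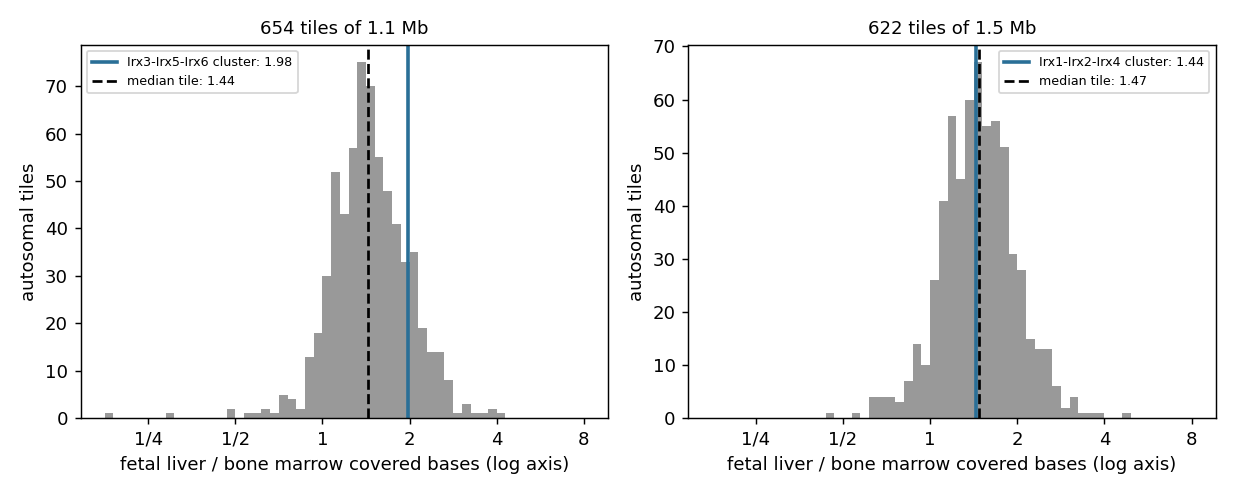
Number of autosomal tiles (vertical axis) by the ratio of fetal liver to bone marrow covered bases (log axis), for tiles of 1.1 Mb, left, and 1.5 Mb, right, with at least 20 kb in bone marrow peaks. The blue line at 1.98 for the Irx3-Irx5-Irx6 cluster lies to the right of the median tile at 1.44, and that at 1.44 for the Irx1-Irx2-Irx4 cluster lies on the median of 1.47. A single tile with a ratio of 0.0587 is drawn at the left end of the left plot.

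The fetal liver list was also cut by −log10 p to 20024 peaks, the length of the bone marrow list, which keeps 62.9% of it. By then 39 of 58 fetal liver peaks of the Irx3-Irx5-Irx6 cluster (67.2%) were left, a share near that of the whole list, and the ratio of covered bases was 1.7, against 1.1 over the autosomes. In the Irx1-Irx2-Irx4 cluster 8 of 17 (47.1%) were left, the 15.0 kb peak of the first domain was lost and the ratio was 0.982. The long Irx3-Irx5-Irx6 spacer then held 19 fetal liver peaks over 21.0 kb against 6 bone marrow peaks over 5.14 kb, a ratio of 4.1. At a −log10 q of at least 2 in both lists it held 5 fetal liver peaks over 9.1 kb and 1 bone marrow peak of 499 bp. At that limit the Irx1-Irx2-Irx4 cluster kept 3 bone marrow peaks over 21.4 kb and 1 fetal liver peak of 2.16 kb, so the direction there was the opposite. Most of the 21.4 kb was the 20.1 kb peak of the third domain, whose fetal liver counterpart of 20.2 kb missed the limit. Over the autosomes the ratio at this limit was 0.694. Whether a score means the same in both lists was not tested.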

How the data were processed

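H3K27me3 immunoprecipitations of NOTCH1ΔE-transduced bone marrow and fetal liver progenitors gave 1 peak list each, grouped by sample title. The inputs have no file of their own and were not analysed here. The build is mm9, and the tools are MACS2 2.1.0, Picard and BWA 0.5.7, per the submitters' processing notes. Not given in the sources used here are settings, filters, depth and the number of merged libraries. The deposited columns are the authors' fold (a ratio of immunoprecipitation to input, averaged over the peak), −log10 p and −log10 q, and a score derived from the −log10 q, not used further. They served to describe, rank or filter peaks.

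Peaks were clipped to the windows, counted from 1 bp of overlap and given from 1. Covered bases came from Python 3.11.15 with pandas 2.3.3 and numpy 2.4.6, checked against bedtools 2.31.1 and tested on simulated data. Wilson intervals came from scipy 1.17.1, figures from matplotlib 3.10.9. Neighbouring peaks are not independent, so intervals are too narrow. Named were the 3 widest joined domains of each list, the widest and highest peaks, the longest gaps and runs of 2 or more bins of 1 list. Windows and lists were chosen with earlier results of these data known. Alternatives were score, fold and width limits, reduced fetal liver lists, joining distances, moved bins and narrower windows.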

Additional observations from a re-analysis of the deposited data

How the results depend on the processing

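No paired analysis was possible because each population has a single peak list. Of 59 alternative values, 30 stayed within 1.5 times of the reported value, 25 moved further and 4 turned the direction of a ratio. In the Irx3-Irx5-Irx6 cluster the ratio of covered length stayed between 1.69 and 2.82; at a fold of at least 3 it could not be formed, since 0 bone marrow and 2 fetal liver peaks were left. In the Irx1-Irx2-Irx4 cluster it turned to 0.101 at a −log10 q of at least 2, to 0 at a fold of at least 3, to 0.982 with fetal liver peaks cut by −log10 p to as many as in bone marrow and to 0.973 when cut to the same covered length. Over the autosomes the ratios under these settings were 0.694, 0.676, 1.1 and 1.01. The cause was not tested.

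The 17 bins covered in fetal liver only in the Irx3-Irx5-Irx6 cluster became 6 at a −log10 q of at least 2, 2 at a fold of at least 3, 10 with peaks of at least 1 kb, 10 under either reduced fetal liver list and 7 when at least 1 kb was required. The 1 bin of bone marrow only became 2, 0 and 3 under the first 3 of these settings and 0 with bins moved by 10 kb. As shares of covered bins, fetal liver only made up 6 of 10 (60.0%), 2 of 2 (100%) and 10 of 21 (47.6%) under the first 3 settings. The autosomal shares were 39.7%, 43.6% and 34.4%. Under either reduced list the share was 40.0%, against 26.9% and 25.7%. In the Irx1-Irx2-Irx4 cluster the 5 bins of fetal liver only became 1, of 5 covered, at a −log10 q of at least 2. They became 0 of 2 at a fold of at least 3 and 2 of 10 under either reduced list. With a limit of 1 on −log10 q, a setting added after seeing the data, they became 2 of 10. In that order of settings, the autosomal shares were 39.7%, 43.6%, 26.9% and 25.7% (reduced lists) and 34.1%. The 0 bins of bone marrow only became 4, 2, 2, 2 and 3 under these settings and 1 with moved bins. For bone marrow only, autosomal shares were not formed under any alternative setting. Whether the bone marrow counts of either cluster followed the whole lists was therefore not tested. Comparisons of cover are limited by the unknown depth of both lists.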
